A study of Homo sapiens with 78 samples.

Results

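RNA polymerase III makes short, structured RNAs that carry no poly(A) tail, so libraries primed with oligo-dT largely miss them and total RNA libraries can hold them. The 9 genes described here are 7SK (ENSG00000202198), RPPH1 and the overlapping ENSG00000259001, RMRP, RN7SL1, RN7SL2, VTRNA1-1, RNY1 and RNY3. They were chosen by name, and estimated counts and TPM were summed over the transcripts of each gene in each well. They are 9 of the 62744 genes in the tables.

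7SK RNA holds the elongation factor P-TEFb inactive in the nucleus. RPPH1 is the catalytic RNA of RNase P, which trims the 5′ end of tRNA precursors, and RMRP is the RNA of the related RNase MRP. 7SL RNA, from RN7SL1 and RN7SL2, is the scaffold of the signal recognition particle, which brings ribosomes that make secreted proteins to the endoplasmic reticulum. Vault RNAs are part of the vault particle, and Y RNAs bind the Ro60 protein.

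Single A375 cells (a human melanoma line) and single Jurkat cells (a human T cell leukemia line) were sorted by FACS after labelling for CD47 in A375 and for CD81 in Jurkat. A375 cells were sorted into PBS and Jurkat cells into lysis solution, so cell line and sort buffer cannot be told apart. Libraries were made with the SMARTer Stranded kit for pico input total RNA (#634413) in 21 A375 and 18 Jurkat wells, and with the SMART-Seq Stranded kit (#634444) in another 21 and 18. No separate cultures or days are named, so the wells of a line and kit are cells of 1 source and each of the 4 groups was treated as 1 sample: no test between groups was run, and values stand with their range over wells.

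Totals ranged from 909 to 2567265 estimated counts per well, with a median of 813697. A total of 69 wells held at least 203424 counts, which is 25% of that median (17 and 16 A375 wells with #634413 and #634444, and 18 Jurkat wells with each kit), and are called deep wells below. The 9 shallow wells were all A375 wells. T cell markers outweighed melanoma line markers in 18 of 18 Jurkat wells with each kit, and melanoma line markers outweighed T cell markers in 19 and 17 of the 21 A375 wells, the others having counts of neither. In 2 deep A375 wells with kit #634413, 53.4% and 48.5% of the counts lay on the rDNA repeat unit, against 5.98 to 25% in the other 67 deep wells. They are index numbers 10 and 13, and both held no count of RNY1 or RNY3.

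Levels are given as CPM, the estimated counts of a gene per 1e6 counts of the well or, for a group, of all its wells together (pooled CPM). Intervals in brackets are exact 95% intervals of counting error alone. A gene was called different where the ratio of pooled CPM passed 2-fold and at least 5 counts stood in at least 25% of the wells compared.

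Sequences follow for the RNAs on which the results turn, read from GENCODE v44 (GRCh38) and written as DNA, 5′ to 3′. A stretch from the 5′ end of 7SK (chr6:52995620-52995950, plus strand, 331 bases) holds the 5′ hairpin, where HEXIM1 binds, and the capitals mark GATC, a motif of that hairpin. It starts at bases 13, 42 and 64 and at no other base of the RNA. Of 8625 GENCODE transcripts of 250 to 360 bases, 10.1% hold GATC at least 3 times.

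7SK: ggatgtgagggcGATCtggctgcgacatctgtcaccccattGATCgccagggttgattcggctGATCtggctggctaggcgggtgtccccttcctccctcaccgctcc

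RPPH1 (chr14:20343075-20343407, minus strand, 333 bases) lies whole within ENSG00000259001 (chr14:20343048-20343685, minus strand, 638 bases), annotated as a long non-coding RNA. It fills bases 279 to 611 of that transcript, after 278 bases and before 27. Both ends of RPPH1 inside ENSG00000259001 are shown, with RPPH1 in capitals, since reads that lie wholly in the capitals fit both targets.

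start of RPPH1 in ENSG00000259001: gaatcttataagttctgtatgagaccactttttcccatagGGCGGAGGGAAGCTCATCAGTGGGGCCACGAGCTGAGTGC

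end of RPPH1 in ENSG00000259001: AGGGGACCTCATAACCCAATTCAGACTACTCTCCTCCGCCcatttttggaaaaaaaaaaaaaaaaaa

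RN7SL2 (chr14:49862550-49862849, minus strand, 300 bases) and RN7SL3 (chr14:49853616-49853914, minus strand, 299 bases), another 7SL gene that is not among the 9, were 96% identical. RN7SL1 (chr14:49586580-49586878, plus strand, 299 bases) was 98.3% identical to RN7SL2.

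The Y RNAs RNY1 (chr7:148987136-148987248, minus strand), RNY3 (chr7:148983755-148983856, plus strand) and RNY4 (chr7:148963315-148963410, plus strand; not among the 9) lie close together. RNY1 and RNY4 are shown because both were higher in A375 with each kit, and the capitals mark the 11 bases with which both begin. RNY1 and RNY3 were 71.7% identical, and RNY4 was 63.7% identical to each of them.

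RNY1: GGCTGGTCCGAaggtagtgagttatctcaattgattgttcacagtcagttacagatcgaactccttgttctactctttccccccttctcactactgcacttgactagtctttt

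RNY4: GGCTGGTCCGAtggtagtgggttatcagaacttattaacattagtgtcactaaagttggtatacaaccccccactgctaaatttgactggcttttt

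VTRNA1-1 (chr5:140711275-140711373, plus strand, 99 bases) and its neighbours VTRNA1-2 (chr5:140718925-140719013, plus strand) and VTRNA1-3 (chr5:140726158-140726246, plus strand), of 89 bases each, were 79.8 to 86.5% identical to one another. The capitals mark a match to the B box, GTTCNANNC, an internal promoter element of RNA polymerase III genes, searched on the RNA strand. Of 4940 GENCODE transcripts of 80 to 130 bases, 4.51% hold such a match. RNY1 held 1 match too, and the other members searched held none within the RNA. ENSG00000259001 was not searched.

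VTRNA1-1: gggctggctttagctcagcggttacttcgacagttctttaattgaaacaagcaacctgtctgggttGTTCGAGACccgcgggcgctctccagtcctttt

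VTRNA1-2: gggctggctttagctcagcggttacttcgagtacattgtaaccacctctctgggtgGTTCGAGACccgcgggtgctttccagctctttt

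VTRNA1-3: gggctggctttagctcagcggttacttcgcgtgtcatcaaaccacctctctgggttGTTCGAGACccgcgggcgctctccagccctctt

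Together the 9 RNAs took 1.81% of all estimated counts in A375 and 2.18% in Jurkat with kit #634413, and 2.33% and 2.77% with kit #634444. RN7SL2 and 7SK made up most of this share, which leaves out targets without a match in the annotation. Of the 9 genes, 6 passed the count minimum in both comparisons between cell lines. With kit #634413, RNY1 and RNY3 were called higher in A375, where 24.7% of the 11137 genes counted were called higher, and RPPH1 was called lower, where 22.3% were. With kit #634444, RNY1 and RNY3 were again called higher (24.6% of 12176 genes), and RPPH1 and ENSG00000259001 were called lower (20.3%). RMRP, RN7SL1 and VTRNA1-1 did not reach the count minimum. The median log2 ratio over all genes counted was -0.01 with kit #634413 and 0.01 with kit #634444.

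**Figure D1:**
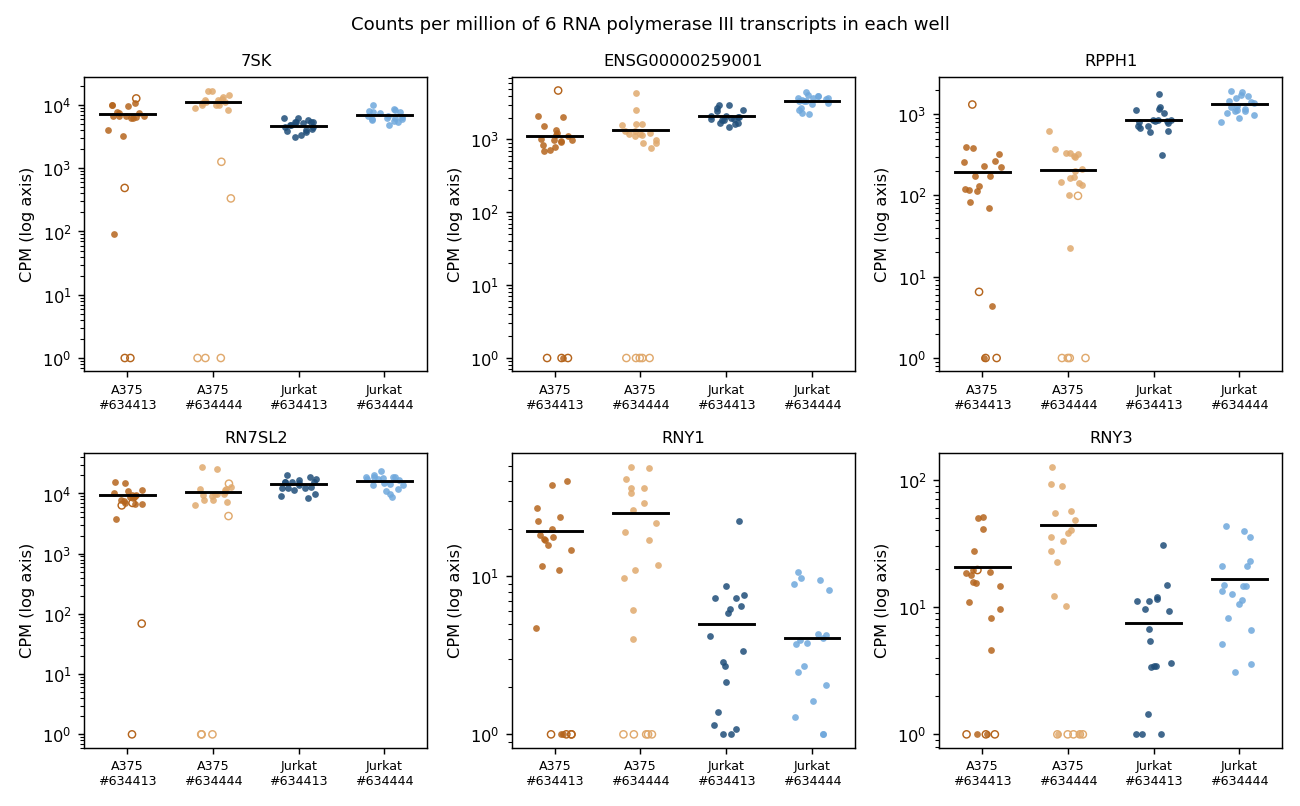
Level of 6 RNAs in each of the 78 wells, in CPM on a log axis, by cell line and kit. Filled points are deep wells, open points shallow wells, and the black bar is the pooled CPM of the group; wells at 0 or below 1 CPM are drawn at 1. 7SK lies higher in A375 (pooled 7166 and 10990 CPM) than in Jurkat (4659 and 6871 CPM), and RPPH1 lies lower.

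7SK was more abundant in A375. Its pooled level was 7166 CPM in A375 and 4659 CPM in Jurkat with kit #634413, and 10990 and 6871 CPM with kit #634444. With kit #634444, the deep A375 wells ran from 8185 to 16940 CPM with a median of 11120 CPM, and the Jurkat wells from 4753 to 10080 CPM with a median of 6523 CPM. The ranges overlapped, and 12 of the 16 A375 wells lay above every Jurkat well. The ratio was 1.6 [1.59, 1.61], which is under 2-fold. With kit #634413, deep A375 wells ran from 90.7 to 10650 CPM with a median of 6731 CPM. Jurkat wells ran from 3149 to 6338 CPM with a median of 4787 CPM. The lowest A375 value was that of index number 10, which lay below every Jurkat well, and 12 of the 17 A375 wells lay above them all. The ratio was 1.54 [1.53, 1.55], and 1.57 over the deep wells without the 2 of high rDNA.

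RN7SK, a shorter target of 328 bases nested in 7SK, was at 0 counts in all wells, so ENSG00000202198 carried the signal of this locus. Other 7SK copies summed to 29.7 CPM in A375 and 7.01 CPM in Jurkat with kit #634413, and to 49.1 and 19.6 CPM with kit #634444.

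Among the 6 members counted in both comparisons, RPPH1 had the widest gap in favour of Jurkat. Its pooled level was 192 CPM in A375 and 851 CPM in Jurkat with kit #634413, and 207 and 1343 CPM with kit #634444. With kit #634444, deep A375 wells ran from 22.3 to 627 CPM (median 207 CPM) and Jurkat wells from 797 to 1951 CPM (median 1240 CPM). These ranges did not overlap, as was so in this direction for 1.08% of the genes counted. Jurkat was 6.49-fold [6.25, 6.75] higher. With kit #634413, deep A375 wells ran from near 0 to 393 CPM (median 173 CPM). Jurkat wells ran from 316 to 1766 CPM (median 831 CPM), and the A375 well was the higher one in 0.980% of the pairs of deep wells. Jurkat was 4.43-fold [4.27, 4.59] higher.

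ENSG00000259001, which contains RPPH1, was also more abundant in Jurkat. It stood at 1098 CPM in A375 and 2104 CPM in Jurkat with kit #634413, a 1.92-fold [1.88, 1.95] difference. The log2 ratio of A375 over Jurkat was -0.94 there, and it passed 2-fold with TMM scaling (-1.01) and with the median of the wells' CPM (-1.03). With kit #634444 it stood at 1357 and 3330 CPM, a 2.46-fold [2.41, 2.50] difference, with deep A375 wells between 755 and 4319 CPM and Jurkat wells between 2247 and 4492 CPM. The ranges overlapped with both kits, and 14 deep A375 wells lay below every Jurkat well with each. Since the counts of nested targets are estimates from shared reads, the sum of both was also taken. It was 2.29-fold [2.26, 2.33] higher in Jurkat with kit #634413 and 2.99-fold [2.95, 3.03] higher with kit #634444. RPPH1 took 14.9% and 13.2% of this sum in A375, and 28.8% and 28.7% in Jurkat, with kits #634413 and #634444.

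**Figure D2:**
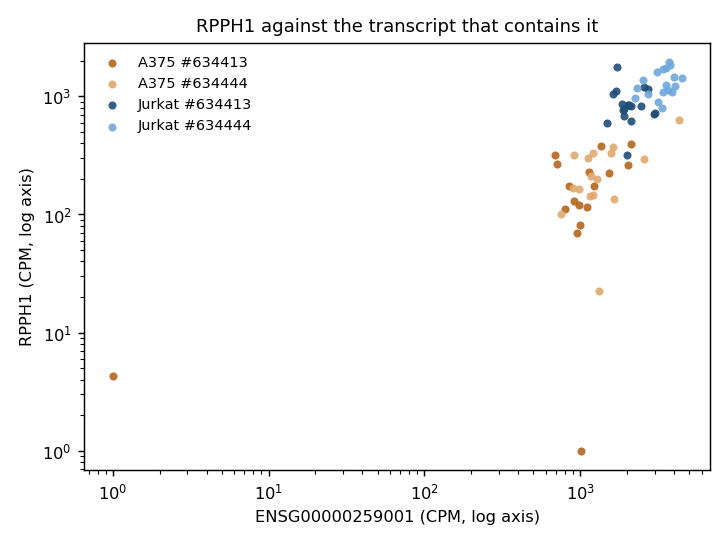
RPPH1 against ENSG00000259001, the transcript that contains it, in each of the 69 deep wells, both in CPM on log axes, coloured by cell line and kit; values under 1 are drawn at 1. Jurkat wells lie to the upper right, with RPPH1 between 316 and 1951 CPM. The point on the left margin is the A375 well with index number 10, and the point at the bottom is another A375 well with kit #634413, with ENSG00000259001 but almost no RPPH1 count.

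The annotated target of RMRP (chr9:35657754-35658017, minus strand, 264 bases) was listed at 0 in all 78 wells, and no level of this RNA can be read from that target. Some targets of the deposited tables could not be matched to the annotation, and 1 of them, ENST00000602361 with 268 bases, stood at 2920 and 3441 CPM in A375 and Jurkat with kit #634413 and at 3289 and 3797 CPM with kit #634444. What this target is, and whether it carries reads of RMRP, was not tested. Its ratio between lines was 0.85 with kit #634413 and 0.87 with kit #634444, both in favour of Jurkat, and its deep wells overlapped with both kits.

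RN7SL2 was the most abundant of the 9 RNAs in CPM in every group except A375 with kit #634444, where 7SK stood slightly above it. It stood at 9555 CPM in A375 and 14160 CPM in Jurkat with kit #634413, and at 10660 and 16120 CPM with kit #634444. Deep A375 wells ran from 3814 to 15380 CPM and Jurkat wells from 8266 to 20610 CPM with kit #634413, and from 6386 to 27640 CPM and 8774 to 23640 CPM with kit #634444. The ranges overlapped widely. Jurkat was 1.48-fold [1.47, 1.49] and 1.51-fold [1.5, 1.52] higher, under 2-fold with both kits.

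RN7SL1, the other 7SL gene among the 9, held 0.91 and 3.59 estimated counts in all in A375 and under 1 in Jurkat, so nearly all 7SL reads went to other targets. ENST00000635274, a target of 300 bases without a match in the annotation, held 134177 and 121226 counts in A375 and 235903 and 203263 in Jurkat with kits #634413 and #634444. RN7SL2 took 56.3% and 56.6% of the sum of the pair in A375 and 52.1% and 53.3% in Jurkat. ENSG00000282885, a gene that overlaps RN7SL2, held 0 counts in A375 and 1 and 13 in Jurkat.

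RN7SL3, by contrast, had far more counts in A375. It stood at 313 CPM in A375 and 2.26 CPM in Jurkat with kit #634413, and at 273 and 1.98 CPM with kit #634444. With kit #634444, deep A375 wells ran from 26.7 to 1670 CPM and Jurkat wells from 0 to 4.94 CPM, with no overlap, as was so in this direction for 2.15% of the genes counted. With kit #634413, deep A375 wells ran from 4.40 to 682 CPM and Jurkat wells from 0 to 10.1 CPM. Among these deep A375 wells, only index number 10 lay within the Jurkat range. A375 was 139-fold [102, 193] and 138-fold [97.0, 212] higher. RN7SL3 took 3.18% and 2.50% of the counts of the 3 named 7SL genes in A375, and 0.016% and 0.012% in Jurkat. ENST00000635274 is not in this sum, and counts of targets as alike as RN7SL2 and RN7SL3 are estimates from shared reads.

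**Figure D3:**
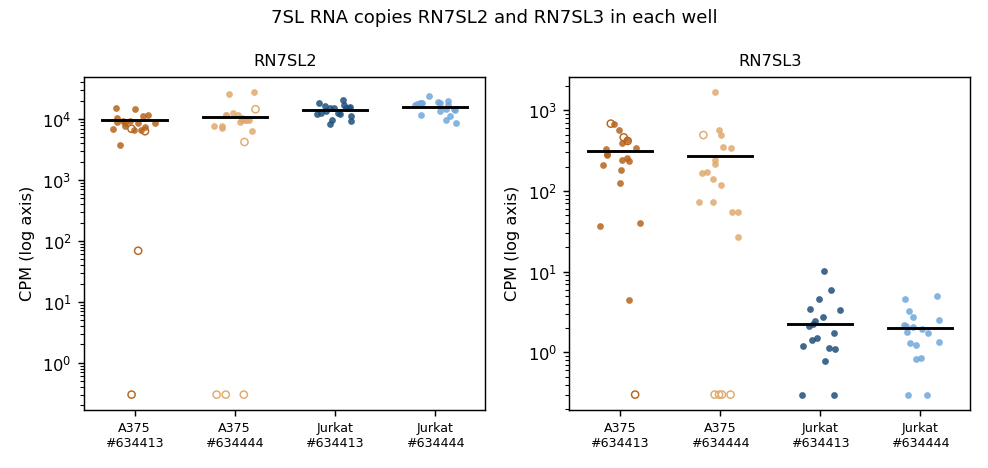
RN7SL2 (left) and RN7SL3 (right) in each of the 78 wells, in CPM on log axes. Filled points are deep wells, open points shallow wells, black bars the pooled CPM, and values under 0.3 are drawn at 0.3. RN7SL2 overlaps between the lines, while the pooled level of RN7SL3 is near 300 CPM in A375 and near 2 CPM in Jurkat. The median of RN7SL3 over deep A375 wells with kit #634444 is lower, at 169 CPM.

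Vault RNAs had low counts, nearly all of them in A375. VTRNA1-1 summed to 35 counts in A375 and 2 in Jurkat with kit #634413, and to 37 and 3 with kit #634444. At least 1 count stood in 11 of 21 A375 wells with each kit, and in 2 and 3 of 18 Jurkat wells. The ratio of CPM was 17.5 [4.49, 150] and 12 [3.80, 60.8], and VTRNA1-1 did not reach the count minimum. VTRNA1-2 held 42 and 22 counts in A375 and 0 in Jurkat, which makes it at least 14-fold and 7.13-fold higher in A375 when 3 counts over the group are taken as the limit that a count of 0 allows. VTRNA1-3 held 144 and 157 counts in A375 and 0 in Jurkat, at least 48-fold and 50.9-fold higher. Neither of them reached the count minimum for a call with either kit. VTRNA2-1 held 1 count in all wells together.

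Y RNAs were higher in A375 too. RNY1 stood at 19.3 CPM in A375 and 4.97 CPM in Jurkat with kit #634413, and at 25.2 and 4.10 CPM with kit #634444. With kit #634444, deep A375 wells ran from 3.99 to 49.4 CPM (median 24.1 CPM) and Jurkat wells from 0 to 10.7 CPM (median 3.89 CPM), and 13 of the 16 A375 wells lay above every Jurkat well. With kit #634413, deep A375 wells ran from 0 to 40.2 CPM (median 17.4 CPM). Jurkat wells ran from 0 to 22.3 CPM (median 3.78 CPM), and 5 of the 17 A375 wells lay above every Jurkat well. A375 was 3.89-fold [3.07, 4.96] higher with kit #634413 and 6.15-fold [4.66, 8.23] higher with kit #634444. These ratios rest on 350 and 90 counts with kit #634413 and on 373 and 59 with kit #634444.

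RNY3 stood at 20.5 CPM in A375 and 7.43 CPM in Jurkat with kit #634413, and at 43.9 and 16.5 CPM with kit #634444. Deep A375 wells ran from 0 to 126 CPM with kit #634444, and Jurkat wells from 3.07 to 43.5 CPM, so the ranges overlapped widely. A375 was 2.75-fold [2.26, 3.39] and 2.66-fold [2.29, 3.09] higher. With kit #634444 the log2 ratio fell from 1.41 to 0.96 with the mean and 0.98 with the median of the wells' CPM, under 2-fold. RNY4 followed the same direction, at 62.2 against 8.29 CPM with kit #634413 and 43.4 against 5.63 CPM with kit #634444, 7.50-fold [6.32, 8.95] and 7.72-fold [6.12, 9.85] higher.

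Between wells of the same group, RNY1 and RNY3 moved together. Pearson's r of log2(CPM + 10), centred within each group, was 0.62 over the 69 deep wells and 0.55 over the 67 wells without the 2 of high rDNA. Over the 69 wells, RNY4 was the gene most like each of them among 8182 genes, at 0.67 for RNY1 and 0.62 for RNY3. Without the 2 wells these values were 0.55 and 0.56, and RNY4 was no closer to RNY1 than RNY3 was. The third gene was RPL7 (0.59, and 0.41 without the 2 wells) for RNY1 and RPS26 (0.59, and 0.52) for RNY3, both ribosomal protein genes. These wells share depth, library pools and the counts of short RNAs, so the values are descriptions.

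For 7SK, the likeness rested on the 2 wells. Among the genes ranked, RPL3 (0.85), PABPC1 (0.83) and HNRNPA1 (0.82) were the most like it over 69 wells. Without those 2 wells the same values were 0.02, -0.13 and -0.15. ENSG00000259001, which was not ranked, stood at 0.86. ENSG00000259001 was most like 7SK (0.86), then SRRM2 (0.74) and RPL3 (0.70), which became 0.45, -0.03 and -0.20 without them. For RPPH1 the values were 0.49 for ENST00000304921, a target without a match in the annotation, 0.45 for 7SK and 0.39 for SRRM2. They became 0.31, 0.18 and 0.06 without the 2 wells. RPPH1 and ENSG00000259001, not ranked against each other, stood at 0.52, and at 0.28 without the 2 wells. RN7SL2 was, among the genes ranked, most like 3 copies of the U2 small nuclear RNA, which share reads among themselves. They stood at 0.58 each, and at 0.56 without the 2 wells.

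**Figure D4:**
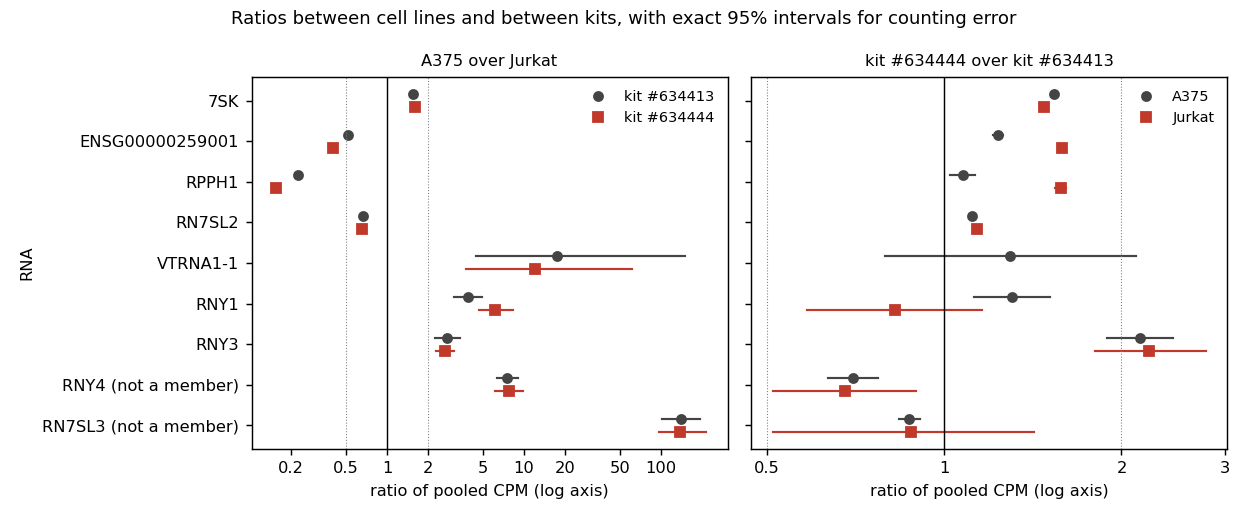
Ratio of pooled CPM for each RNA, on log axes, with exact 95% intervals for counting error. The left panel shows A375 over Jurkat with each kit, the right panel kit #634444 over kit #634413 in each line; solid lines mark 1 and dotted lines 2-fold. VTRNA1-1 is not drawn for the kits in Jurkat. RPPH1 is lowest on the left at 0.23 and 0.15, and RNY3 highest on the right at 2.15 and 2.23.

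The kits were run side by side on each cell line. With kit #634444 the 9 RNAs took 1.29-fold [1.28, 1.30] more of the counts in A375 and 1.27-fold [1.27, 1.28] more in Jurkat than with kit #634413. RNY3 was the only member called, 2.15-fold [1.89, 2.45] higher in A375, where 4.92% of the 12043 genes counted were called higher, and 2.23-fold [1.80, 2.78] higher in Jurkat, where 7.77% of 10596 were. Its deep wells overlapped in both lines. This ratio lay near the threshold. Wells carry index numbers in blocks of 8, and without any 1 of blocks 2, 3, 4 or 5 the log2 ratio in A375 fell under 1, to between 0.93 and 0.99, as it did in Jurkat without block 8 or 12, to 0.90 and 0.91. 7SK was 1.53-fold [1.52, 1.55] and 1.48-fold [1.46, 1.49] higher with kit #634444, and 94.9% and 92.6% of the pairs of deep wells had the higher value with that kit. ENSG00000259001 was 1.24-fold and RPPH1 1.08-fold higher in A375, and both were 1.58-fold higher in Jurkat. RN7SL2 was 1.12-fold and 1.14-fold higher. RNY4, unlike RNY3, was lower with kit #634444, by 1.43-fold in A375 and 1.47-fold in Jurkat.

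The ratio between cell lines was close with both kits for 3 of the 6 members counted and differed more for the other 3. The difference of the log2 ratios, kit #634444 minus kit #634413, was 0.06 for 7SK, -0.03 for RN7SL2 and -0.05 for RNY3. It was -0.55 for RPPH1, -0.36 for ENSG00000259001 and 0.66 for RNY1. None reached 1 in size, as 21.2% of the 10368 genes counted with both kits did.

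Compared per length, as TPM, the order of the members in deep wells was the same at the top of all 4 groups. This order leaves out targets without a match in the annotation. RN7SL2 came first, with medians of 54560 and 60180 TPM in A375 and 71520 and 80020 TPM in Jurkat with kits #634413 and #634444. 7SK came second, with 36000 and 57000 TPM in A375 and 19860 and 27490 TPM in Jurkat. The unmatched ENST00000635274 had medians of 42180 and 46370 TPM in A375 and 64980 and 64630 TPM in Jurkat. It lay above 7SK except in A375 with kit #634444. The unmatched ENST00000602361 had medians of 20170 and 23090 TPM in A375 and 20400 and 23810 TPM in Jurkat. It lay above 7SK only in Jurkat with kit #634413. In A375 the ranges of RN7SL2 and 7SK overlapped with both kits. In Jurkat they did not, the highest 7SK value being 25910 and 39920 TPM and the lowest RN7SL2 value 43930 and 50320 TPM. In A375, ENSG00000259001 (medians 1665 and 2012 TPM) came before RPPH1 (729 and 1106 TPM), and in Jurkat RPPH1 (3332 and 5360 TPM) came before ENSG00000259001 (2713 and 4437 TPM), with overlapping ranges in all groups. RNY1 and RNY3 stood between 72.9 and 879 TPM in median and were not distinct from one another. For RNAs of about 100 bases, TPM rests on effective lengths of 18.4 to 43.3 bases and is less certain than for the longer ones.

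Proteins that bind these RNAs, and the machinery that transcribes them, did not move in 1 direction. Of 63 listed genes, 7 were called higher in A375 and 7 lower with kit #634413, and 5 higher and 7 lower with kit #634444. Over all genes counted, 24.7% were called higher and 22.3% lower with kit #634413, and 24.6% and 20.3% with kit #634444. A total of 60 passed the count minimum with both kits, and 6 passed 2-fold with both, 3 in each direction.

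MVP, the major protein of the vault, stood at 75.1 CPM in A375 and 3.37 CPM in Jurkat with kit #634413, and at 68.9 and 4.59 CPM with kit #634444, 22.3-fold and 15-fold higher in A375. The other vault proteins were PARP4, at 1.25-fold and 2.16-fold higher, and TEP1, at 1.32-fold higher with kit #634413 and 0.90 with kit #634444.

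RO60, the Y RNA binding protein Ro60, was 2.27-fold and 1.79-fold higher in A375. SSB, the La protein that binds the 3′ end of new RNA polymerase III transcripts, was lower there, at 0.45 and 0.36 of the Jurkat level.

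Among 11 proteins of RNase P and RNase MRP, RPP25 was 7.16-fold and 7.33-fold higher in A375. POP7 was at 0.30 and 0.41 of the Jurkat level, RPP21 at 0.47 and 0.55, and RPP38 at 0.57 and 0.50. With kit #634413, 1 of 9 that passed the count minimum was called higher and 2 lower. With kit #634444, 1 of 11 was called higher and 3 lower. Over all genes, 22.3% and 20.3% were called lower with these kits, so the counts of lower genes are near the background. The median log2 ratio of the list was -0.19 and -0.16.

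Of 7 proteins of the 7SK particle and P-TEFb, none was called higher, and CCNT2, a cyclin T, was called lower with kit #634413 (0.49) but stood at 1.03 with kit #634444. CCNT1 stood at 1.28 and 1.59. Of 8 proteins of the signal recognition particle and its receptor, SRP19 was called higher with kit #634413 alone (2.08, against 1.19 with kit #634444), and SRP9 stood at 0.55 and 0.58.

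Of 13 subunits of RNA polymerase III, POLR3G was called higher with kit #634413 (2.51, against 1.69 with kit #634444). Its counterpart POLR3GL stood at 0.51 and 0.28, called lower with kit #634444 alone. POLR3B was at 1.23 and 3.07. Among 19 transcription factors and MAF1, GTF3A, the factor TFIIIA of 5S rRNA genes, was at 0.24 and 0.23 of the Jurkat level, and SNAPC4, a subunit of the complex that binds the upstream promoter of genes such as 7SK, was 2.20-fold and 3.64-fold higher in A375. The medians of the lists of subunits and of factors were -0.07 and -0.33 on the log2 scale with kit #634413, and 0.49 and -0.25 with kit #634444.

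**Figure D5:**
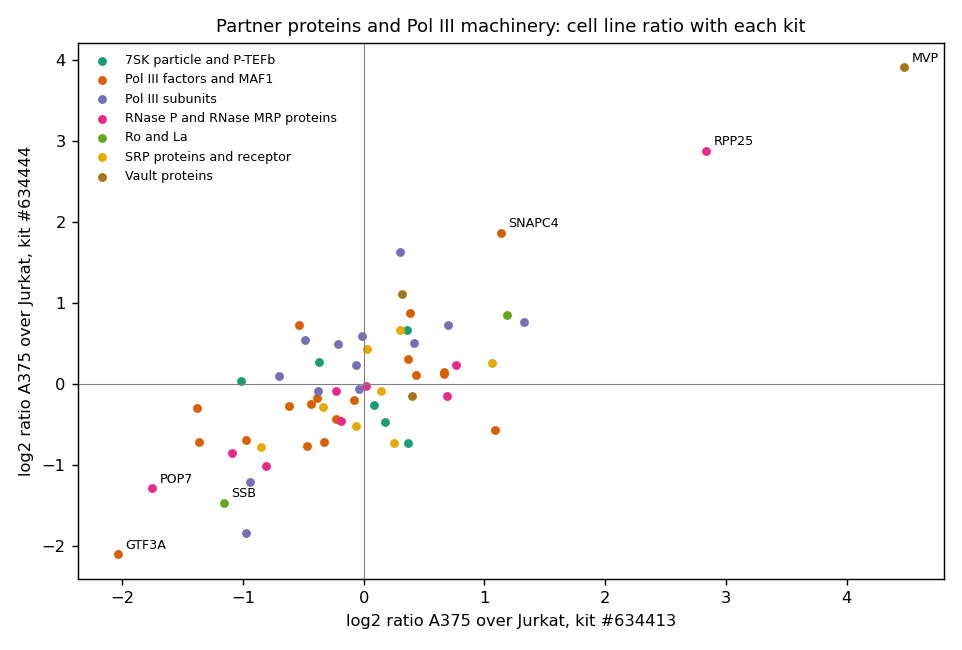
Log2 ratio of A375 over Jurkat with kit #634413 (horizontal axis) and kit #634444 (vertical axis) for the 60 listed genes that passed the count minimum with both kits, coloured by list. The 6 genes past 2-fold with both kits are named: MVP, RPP25 and SNAPC4 at the upper right and POP7, SSB and GTF3A at the lower left.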

How the data were processed

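Single A375 and Jurkat cells were sorted into 78 wells and libraries were made with 2 kits. According to the methods, the authors trimmed 3 bases from the 5′ end of read 2 with cutadapt and quantified reads with Kallisto 0.43.1 in stranded mode against Ensembl 91 transcripts with ERCC spike-in sequences, while STAR 2.5.3 on hg38 served quality control. The deposited tables hold estimated counts, which Kallisto gave per transcript by sharing reads among targets that fit them, and TPM, which the authors' Kallisto run scaled by effective length. Estimated counts are not whole numbers and near-identical targets divide reads between them.

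Transcripts were summed to genes after matching 195850 of 200206 Ensembl targets to GENCODE v44, and targets without a match were kept as single units. No pair among 3003 pairs of wells held identical values. Group levels are summed counts as CPM with exact Poisson intervals, and ratios carry exact conditional 95% intervals, all of counting error only. Since each sample is 1 cell and no culture is named, no test was run. A gene entered a comparison where 25% or more of the wells held 5 counts or more, and was called past 2-fold. The limit that a count of 0 allows was 3 counts over the group. RNA sequences came from GENCODE v44 on GRCh38. Some sequences and 1 listed gene are not reported here. None of the 9 members had an entry in the promoter table used here, so the search for TATA was not run.

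All 9 members were described. From each list of other RNAs and proteins up to 4 genes were named, those with the largest ratio in the same direction with both kits. For each member past the count minimum in every group, the 3 genes with the highest correlation between wells were named. Copies and overlapping targets were left out of that ranking. CCNT2, TEP1, RPP21, RPP38, POLR3B, VTRNA2-1, RNU6-1, RNU6-2, RNU6-9, RNU6ATAC and BCYRN1 fell outside these rules and were chosen after their values were seen. The members and lists were chosen with earlier results of these data known. Scaling by edgeR 4.0.16 (TMM) and DESeq2 1.42.0 (size factors), other ways to combine wells, other thresholds and leaving out blocks of 8 index numbers were tried as alternatives. Scripts were tested on simulated data and ran on Python 3.11.15, numpy 2.4.6, pandas 2.3.3, scipy 1.17.1, matplotlib 3.10.9 and R 4.3.3.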

Additional observations from a re-analysis of the deposited data

Results flagged for a closer look

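A signal stood on 2 targets of the deposited tables that the annotation used here does not name, well above the 3 counts that a count of 0 allows. ENST00000602361, with 268 bases, held 218516 estimated counts over all 78 wells. ENST00000635274, with 300 bases, held 694569. Both were present in every deep well, and what they are was not tested. Groups held more than 10 wells, so single wells far from their group were not searched for.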

How the results depend on the processing

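Of 136 values recomputed for counts of called genes, shares and detection, 109 stayed close to those reported, and among the values for single members 1 moved, the log2 ratio of VTRNA1-1 with kit #634444, to 4.58 without index block 10. No member called past 2-fold reversed its direction, but ratios between kits under 2-fold could. RPPH1 in A375 was 1.08-fold higher with kit #634444 in pooled CPM. The mean of its wells' CPM was lower with that kit, at 189 against 208. RNY1 in Jurkat stood at 0.82 with kit #634444 in pooled CPM, but its median was 3.89 CPM against 3.78 with kit #634413. Scaling by DESeq2 size factors, and leaving out the rDNA repeat unit from the totals, changed no member's call. ENSG00000259001 was also called with kit #634413 under TMM and under the median of the wells' CPM, VTRNA1-1 was called between lines with both kits when 1 count in 3 wells was enough, and RNY3 was not called between lines with kit #634444 under the mean or median of the wells' CPM.

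At a threshold of 1.5-fold, 5 members were called between cell lines with kit #634413 (against 3), 2 between kits in A375 and 3 in Jurkat (against 1 each), 1 member differed in its line ratio between kits (against 0), and 26 and 29 listed proteins were called (against 14 and 12). At 3-fold, 2 members were called between lines with kit #634444 (against 4) and 0 between kits in either line. The share of all genes past 1.5-fold or 3-fold was not computed, so these counts cannot be set against a background. The call of RNY3 between kits in A375 was also lost, leaving 0, with the median of the wells' CPM and with mean TPM. Leaving out 1 block of index numbers at a time gave 3 to 3 and 4 to 4 members between lines, 0.0 to 1.0 between kits in A375 and in Jurkat, and 0.0 to 1.0 for the line ratio between kits, where RNY1 passed without block 6.

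In deep wells, 5 and 4 other RNA polymerase III RNAs were called between lines (against 2 and 2). The list holds the U6 genes RNU6-1, RNU6-2 and RNU6-9, whose counts were equal in every group. The same signal can therefore enter it as several RNAs. The share of all genes called in deep wells was not computed. As TPM, the members took 7.83%, 9.96%, 9.75% and 11.7% in A375 with kits #634413 and #634444 and in Jurkat in the same order. The mean number of members with a count per Jurkat well was 5.83 and 6.06, became 5.06 with both kits at a minimum of 5 counts, and 5.0 with kit #634413 when wells were thinned to 155756 counts.

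Leaving out the wells of high rDNA, an alternative chosen after seeing the data, changed no member's call. No paired analysis was possible because replicate numbers were given in accession order and pair no wells. Low counts limit what can be said of VTRNA1-1. RN7SL1 is 98.3% identical to RN7SL2, and near-identical targets divide reads, so its few counts do not give its level. The annotated target of RMRP held no count, which does not show that this RNA was scarce. In NGP neuroblastoma cells, the paper places RMRP among the most abundant lincRNAs found only with its total RNA method. The cause of the changes above was not tested.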

Other observations

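RNU6ATAC, the small nuclear RNA U6atac of the minor spliceosome, held 20 counts in A375 and 61 in Jurkat with kit #634413, and 21 and 142 with kit #634444. In CPM it was 3.05-fold [1.82, 5.34] and 6.96-fold [4.38, 11.6] higher in Jurkat, below the count minimum in both comparisons.

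BCYRN1, the brain cytoplasmic RNA BC200, held 230 counts in A375 and 110 in Jurkat with kit #634413, and 271 and 40 with kit #634444, also below the count minimum. In each of the 4 groups a single well held most of its counts, from 53.5% to 63.9%.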
